A study of Mus musculus with 36 samples.

Results

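The oxidized phospholipid PGPC was added to lipopolysaccharide (LPS) in type 1 conventional dendritic cells (cDC1), and the RNA of these cells was set against that of cDC1 given LPS without PGPC. Treatment and cell type labels put 6 of the 36 libraries of the series in this comparison: 3 of FLT3LcDC1 with LPS plus PGPC and 3 of FLT3LcDC1 with LPS. Every gene of the table was read in them. The cells of both groups came from mouse bone marrow and were of the kind induced with FLT3 ligand, the growth factor that drives dendritic cells out of marrow progenitors. The series holds cDC1 and type 2 cells (cDC2) left untreated or given LPS, LPS plus PGPC, PGPC, LPS plus alum or alum, with 3 biological replicates of each. From these, the LPS plus PGPC and LPS libraries of cDC2 and the PGPC and untreated libraries of cDC1 are used below as comparisons. Strain, sex, dose, time of treatment and the markers used to separate cDC1 are not given in the labels used here.

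LPS is the outer membrane lipid of Gram-negative bacteria, which CD14 and the receptor TLR4 sense, and which sets off cytokine, costimulation and interferon genes through NF-kB and interferon regulatory factors. PGPC is a phosphatidylcholine with a shortened, oxidized chain, of the kind that forms when phospholipids of membranes and lipoproteins are oxidized. In dendritic cells already activated by LPS it is known for letting the NLRP3 inflammasome release interleukin-1 beta while the cells stay alive, a state called hyperactive. cDC1 are the dendritic cells best known for presenting antigen of other cells on MHC class I to CD8 T cells.

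The 3 LPS plus PGPC libraries held 6120999.74, 8290415.25 and 11999793.44 expected counts, and the 3 LPS libraries 9484975.83, 1416288.54 and 2874525.69. Between 7.70% and 39.1% of the counts in LPS plus PGPC libraries and between 13.9% and 25.9% in LPS libraries fell on 4 ribosomal RNA genes. Values are given below as CPM, counts scaled by TMM to one common library size, always for replicates 1, 2 and 3 in this order. CPM is not per length, so levels are compared between libraries and not between genes. A floor of 3 counts came to 0.281 to 0.385 CPM in the LPS plus PGPC libraries and to 0.268 to 1.77 CPM in the LPS libraries. Replicates agreed less closely with LPS plus PGPC (Spearman correlation across genes 0.892 to 0.955) than with LPS (0.939 to 0.957). In these bulk samples fewer cells of a type and less RNA per cell cannot be told apart. The p-values rest on a spread between libraries labelled as biological replicates. It was pooled over the 23 libraries and 8 groups of the fit, and not taken from the compared libraries alone.

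Markers of cDC1 did not uniformly carry the label. The 16 listed cDC1 markers summed to 680 to 1240.3 CPM with LPS plus PGPC and to 875 to 1528 CPM with LPS, against 1676 to 2364 CPM in untreated cDC1, 431 to 811 CPM in cDC2 with LPS plus PGPC and 291 to 621 CPM in cDC2 with LPS. Batf3, the transcription factor that cDC1 depend on, had 45.1, 23.9 and 22.9 CPM in the LPS plus PGPC libraries, against 7.14, 6.5 and 8.24 CPM in the LPS libraries (log2 fold change 2.06 ± 0.65 (adjusted p = 0.099)). Xcr1, the chemokine receptor that defines cDC1, stood at 1.41, 0.91 and 0.375 CPM with LPS plus PGPC, against 26.5, 11.2 and 2.35 CPM with LPS (log2 fold change -3.89 (adjusted p = 0.15)). For Clec9a, a receptor for dead cells, the values were 0.128, 9.1 and 1.59 CPM with LPS plus PGPC, against 21.9, 5.31 and 2.35 CPM with LPS. Both surface markers were low in some libraries of either group, and the groups overlapped for Clec9a but not for Xcr1 and Batf3. None of the 3 passed the test. Batf3 and Xcr1 had the highest and the lowest log2 fold change of the list. Of its 16 markers 7 had a positive and 9 a negative log2 fold change, with a median of -0.47. In edgeR's quasi-likelihood test 1 was higher and 4 lower at an unadjusted p under 0.05.

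Markers of other cells were present in both groups. The cDC2 list summed to 1042 to 1294 CPM with LPS plus PGPC and to 1567 to 1975 CPM with LPS, without overlap, against 1245 to 2855 CPM in cDC2 with LPS plus PGPC and 1444 to 5122 CPM in cDC2 with LPS. The monocyte or macrophage list summed to 789 to 1143 CPM against 1001 to 2254 CPM. Such sums are led by the most abundant members, and the members of these lists did not fall as a whole. Of 12 cDC2 markers tested 8 had a positive and 4 a negative log2 fold change, with a median of 0.47. Among 16 monocyte or macrophage markers 10 were positive and 6 negative, with a median of 0.22. Plasmacytoid markers summed to 296 to 435 CPM with LPS plus PGPC and 262 to 453 CPM with LPS, B cell markers to 144 to 222 CPM against 151 to 433 CPM, and mast cell or basophil markers to 129 to 257 CPM against 128 to 243 CPM. Neutrophil markers reached 3.08 to 75.3 CPM with LPS plus PGPC and 9.45 to 20.3 CPM with LPS, erythroid markers 4.43 to 8.15 CPM against 5.31 to 6.48 CPM, and T or NK cell markers 1.16 to 2.05 CPM against 0 to 2.41 CPM. Defining markers at 0 in all 6 libraries were Elane, Mpo and Ctsg of neutrophils and Vpreb3 of B cells. Also at 0 in all 6 were Cd3d, Ncr1, Nkg7, Klrb1c and Gzma of T or NK cells, Car1 and Alas2 of erythroid cells, Mcpt8, Ms4a2, Tpsb2 and Il4 of mast cells or basophils, and Klk1 of plasmacytoid cells. In edgeR's quasi-likelihood test 0 genes on these 9 lists were called. At an unadjusted p under 0.05 14 were higher and 17 lower, and DESeq2 called 5 higher and 5 lower.

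PGPC added to LPS changed 241 of the 12463 genes tested (1.93%) at an adjusted p under 0.05, 173 of them higher (1.39%) and 68 lower (0.546%) with LPS plus PGPC. Genes that rose with PGPC included ones that handle lipid, belong to the lysosome, bind calcium at membranes or sit at the cell surface. The smallest adjusted p among the genes that rose was that of Lpl. Genes of extracellular matrix and contractile cells also rose, with some of the largest fold changes, but unevenly over the LPS plus PGPC libraries. Those that fell included the transcription factor gene Sp6, the signalling subunit gene Pik3cg and the cytokine subunit gene Ebi3. The libraries of the 2 groups did not overlap for 165 of the 173 higher genes (95.4%) and for all 68 lower ones, against 3289 of all tested genes (26.4%). The median log2 fold change of all tested genes was 0.07.

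These counts depended on single libraries and on which libraries shared the fit. Without LPS replicate 1 there were 60 calls, without LPS replicate 2 there were 64, without LPS plus PGPC replicate 3 there were 104, and without LPS plus PGPC replicate 1 there were 151. The share of calls that were higher was 71.8%, against 58.2% of the 722 calls of DESeq2 (5.79%), 52.9% of the 242 calls in a fit on the 12 cDC1 libraries and 46.2% of the 353 calls in a fit on the 6 libraries alone. A fit on 24 libraries added cDC2 PGPC replicate 6. Of 65 called genes that the naming rule picked, 16 were called in each of 16 alternatives: Lpl, Plin2, Tsc22d3, Klf2, Klf6, Cd9, Cd63, Emp1, Epb41l1, Tgfb1i1, Sp6, Shisa3, Fam43a, Ptger2, Pik3cg and Serp1. Fits with a lone LPS plus PGPC library, given further below, are not among these 16 alternatives. For other called genes the libraries whose omission ended the call, and the other fits that ended it, are named below, with the highest adjusted p over all alternatives in brackets.

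**Figure D1:**
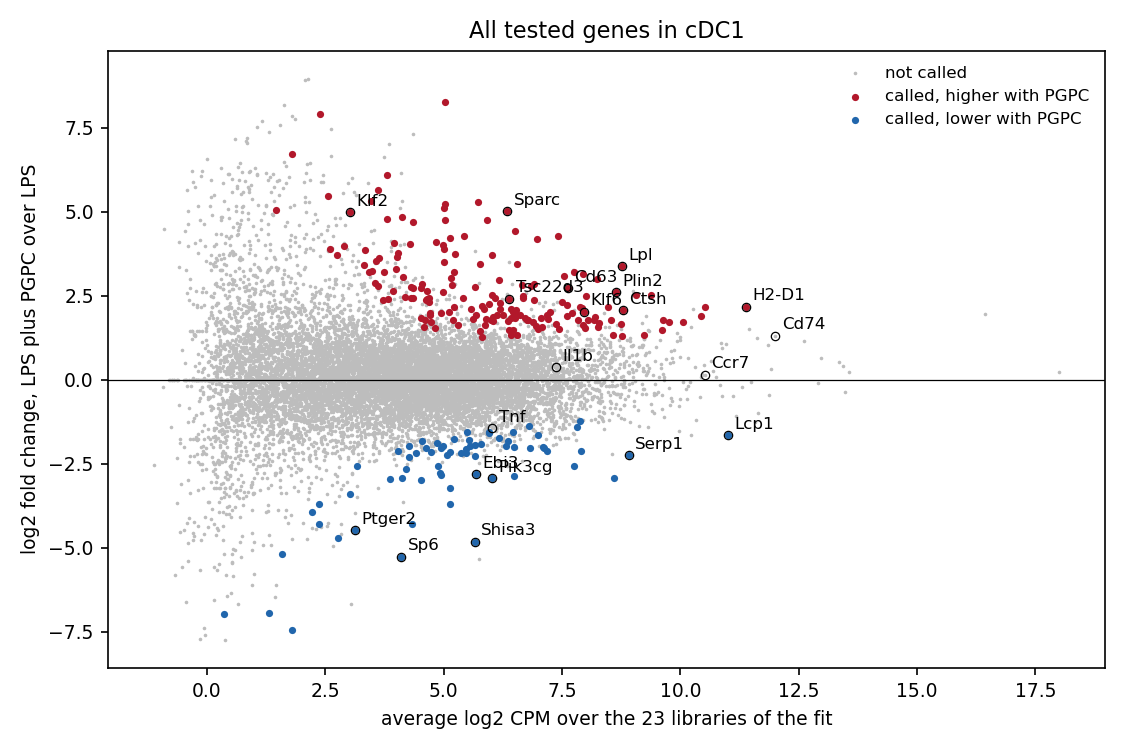
Log2 fold change, LPS plus PGPC over LPS in cDC1, for each of the 12463 tested genes (vertical axis) against the average log2 CPM over the 23 libraries of the fit (horizontal axis), with the 173 genes called higher and the 68 called lower in colour. Called genes lie at high and low expression alike, with Lpl and Plin2 on the higher side and Sp6 and Shisa3 on the lower side. Some uncalled genes, such as Ccl17, lie above Lpl.

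Lipid handling genes under the nuclear receptors LXR and PPAR gamma held 4 higher and 0 lower calls among 25 tested, against 1.39% higher and 0.546% lower of all tested genes, the background for each list below, with a median log2 fold change of 0.62. Lpl, the lipoprotein lipase that frees fatty acids from lipoproteins (chr8:68880491-68907448, GRCm38), had 157, 97.1 and 167 CPM in the LPS plus PGPC libraries, against 19.2, 9.45 and 10.6 CPM in the LPS libraries. The lowest LPS plus PGPC library lay above the highest LPS library by several fold, and the log2 fold change was 3.39 ± 0.45 (adjusted p = 0.000469), where ± is the standard error of the fit. In untreated cDC1 Lpl stood at 53, 189 and 125.02 CPM, and in cDC1 given PGPC without LPS at 694, 409.7 and 881 CPM, so the LPS libraries had the lowest Lpl of the 4 cDC1 groups.

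Plin2, which coats lipid droplets (chr4:86648386-86670060), had 229, 152 and 174 CPM in the LPS plus PGPC libraries, against 32.4, 21.8 and 35.6 CPM in the LPS libraries. All 3 LPS plus PGPC values exceeded all LPS values, and the log2 fold change was 2.62 ± 0.36 (adjusted p = 0.000681). Untreated cDC1 held 197, 415 and 241 CPM of Plin2. Pparg itself, the receptor that fatty acids and oxidized lipids activate, was low in both groups, at 10.8, 7.85 and 22.2 CPM with LPS plus PGPC, against 2.05, 0.59 and 1.18 CPM with LPS. Its groups did not overlap either, at a log2 fold change of 3.23 ± 0.80 (adjusted p = 0.0305). The fourth call was Npc2, which moves cholesterol out of the lysosome, at 323, 367 and 394 CPM with LPS plus PGPC, against 167, 129 and 135 CPM with LPS and 1.33 ± 0.35 (adjusted p = 0.047). Abcg1, a cholesterol exporter named after its values were seen, stood at 163, 205 and 209 CPM with LPS plus PGPC, against 94.9, 40.2 and 41.2 CPM with LPS and missed the test at 1.70 ± 0.47 (adjusted p = 0.0598). Cd36, a receptor for oxidized lipid and fatty acids, overlapped between the groups at 64.3, 63.1 and 48.1 CPM with LPS plus PGPC, against 72.5, 49.6 and 45.9 CPM with LPS, and its log2 fold change was 0.06 (adjusted p = 0.977). Pparg lost its call without LPS plus PGPC replicate 3 or LPS replicate 1, 2 or 3, or in the fit on 12 libraries (adjusted p up to 0.142). Npc2 lost its call without LPS plus PGPC replicate 2 or 3 or LPS replicate 1, 2 or 3, in the fits on 24 and 12 libraries, or with no filter on low counts (adjusted p up to 0.167).

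In the cholesterol and fatty acid synthesis list 2 genes were higher and 0 lower of 30 tested, with a median of 0.22. Both called genes act in the mevalonate and sterol branch. Fdps, which makes farnesyl diphosphate, had 210.1, 198 and 237 CPM in the LPS plus PGPC libraries, against 78.4, 38.4 and 61.2 CPM in the LPS libraries. Fdft1, which joins farnesyl units into squalene, had 282, 331 and 471 CPM in the LPS plus PGPC libraries, against 49.7, 49 and 104 CPM in the LPS libraries. Neither overlapped between the groups, and the log2 fold changes were 1.85 ± 0.38 (adjusted p = 0.011) for Fdps and 2.42 ± 0.62 (adjusted p = 0.0374) for Fdft1. Pmvk, a kinase of the same pathway, reached 1.93 (adjusted p = 0.0771) and Msmo1, a sterol oxidase, 1.05 (adjusted p = 0.113). Acss2, which makes acetyl-CoA from acetate and was named after its values were seen, stood at 87.4, 25.6 and 32.8 CPM with LPS plus PGPC, against 9.28, 5.31 and 6.77 CPM with LPS, a log2 fold change of 2.73 ± 0.49 (adjusted p = 0.00412) without overlap. The call of Acss2 held in 16 of 16 alternatives. Fdps lost its call without LPS replicate 2 (adjusted p up to 0.0799). Fdft1 lost its call without LPS plus PGPC replicate 1, 2 or 3 or LPS replicate 1 or 2 (adjusted p up to 0.182).

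**Figure D2:**
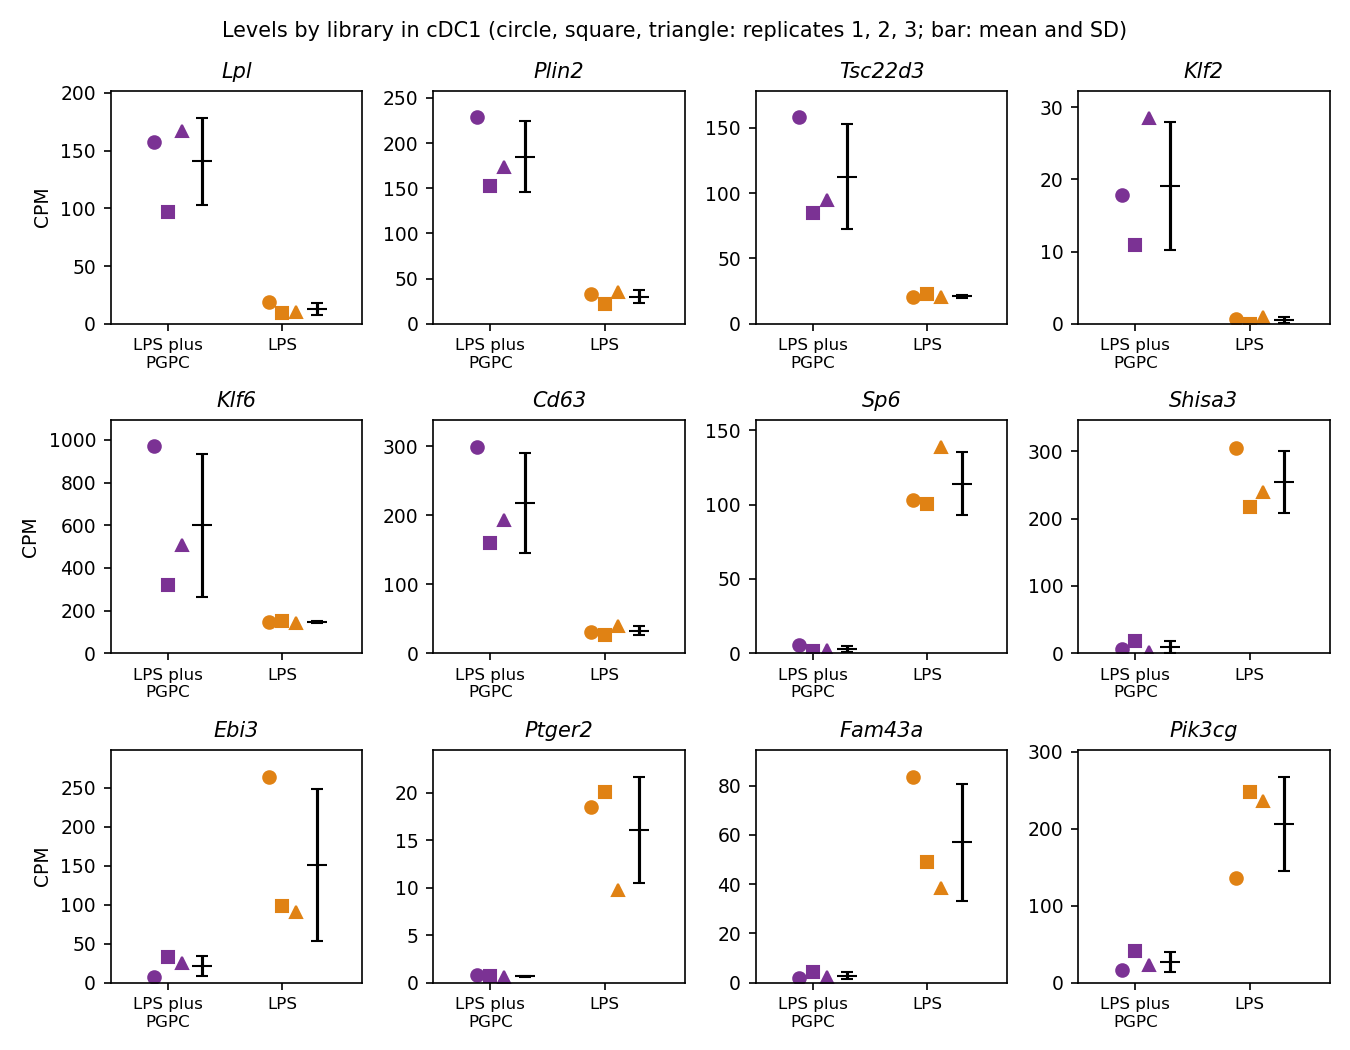
CPM in each of the 3 LPS plus PGPC libraries (left in each panel) and the 3 LPS libraries of cDC1 (right), for 12 called genes. Each point is 1 library, and bars give the mean and SD of the 3. For Lpl the LPS plus PGPC points lie between 97.1 and 167 CPM and the LPS points between 9.45 and 19.2 CPM, and for Sp6 the order is turned round.

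Genes for transcription factors and feedback regulators of early response followed. The immediate early and AP-1 list had 3 higher and 0 lower calls among 30 tested, with a median of 0.65. Klf2, a Kruppel-like factor known for keeping immune and endothelial cells quiet (chr8:72319033-72321656), had 17.8, 10.9 and 28.5 CPM in the LPS plus PGPC libraries, against 0.625, 0 and 0.883 CPM in the LPS libraries. It was nearly absent in the LPS libraries, where 1 library held 0, and the log2 fold change was 4.98 ± 0.89 (adjusted p = 0.00412). Untreated cDC1 had 9.41, 2.53 and 1.66 CPM of Klf2. Klf6, another factor of this family, had 971, 318 and 507 CPM in the LPS plus PGPC libraries, against 146, 151 and 143 CPM in the LPS libraries. The LPS libraries lay within a narrow band below every LPS plus PGPC library, of which replicate 1 was the highest, and the log2 fold change was 2.03 ± 0.37 (adjusted p = 0.00461).

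Dusp5, a phosphatase that switches off nuclear ERK, had 306, 423 and 653 CPM in the LPS plus PGPC libraries, against 112, 62.6 and 192 CPM in the LPS libraries, a log2 fold change of 1.91 ± 0.40 (adjusted p = 0.012) without overlap, and lost its call without LPS plus PGPC replicate 3 or LPS replicate 1 or 2, or in the fit on 6 libraries (adjusted p up to 0.0853). Ier2, another immediate early gene, was lower at 32.5, 35.6 and 33.7 CPM with LPS plus PGPC, against 219.8, 105 and 69.5 CPM with LPS but missed the test (-1.96 (adjusted p = 0.0687)). Among the 12 Kruppel-like factor genes tested, 3 were higher and 0 lower, with a median of 0.86, the third being Klf11 at 2.36 (adjusted p = 0.0372), which lost its call without LPS plus PGPC replicate 1 or 3 or LPS replicate 1 or 2, or in the fit on 12 libraries (adjusted p up to 0.204). Bhlhe40, a repressor active in stimulated myeloid cells, stood at 1255, 766 and 1182 CPM with LPS plus PGPC, against 292, 349.6 and 444 CPM with LPS, which gave 1.56 ± 0.31 (adjusted p = 0.00842). Myc, the growth regulator, had lower values with PGPC, 12.5, 7.62 and 16.5 CPM with LPS plus PGPC, against 77.5, 56.7 and 33 CPM with LPS, and a log2 fold change of -2.19 ± 0.51 (adjusted p = 0.0232). Klf11, Bhlhe40 and Myc were named after their values were seen, and the Kruppel-like factor genes were gathered as a family after theirs. Bhlhe40 lost its call without LPS replicate 1 (adjusted p up to 0.0728). Myc lost its call without LPS plus PGPC replicate 1, 2 or 3 or LPS replicate 1 or 2 (adjusted p up to 0.127).

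Tsc22d3 encodes GILZ, a glucocorticoid-induced inhibitor of NF-kB and AP-1 (chrX:140539528-140600659). It had 158, 84.6 and 94.7 CPM in the LPS plus PGPC libraries, against 20.5, 22.4 and 20.3 CPM in the LPS libraries. The LPS libraries lay close together, all LPS plus PGPC libraries were above them, and the log2 fold change was 2.42 ± 0.37 (adjusted p = 0.00168). Untreated cDC1 had 48.8, 70.6 and 62.7 CPM and cDC1 given PGPC without LPS 189, 175 and 179 CPM of Tsc22d3. It was the one call, higher, among 13 tested genes of the glucocorticoid-responsive list, whose median was 0.73. Of the rest of that list, Anxa1 (annexin A1) came to 2.08 (adjusted p = 0.115), Errfi1, an inhibitor of the EGF receptor, to 1.73 (adjusted p = 0.138) and the kinase gene Sgk1 to -2.03 (adjusted p = 0.152), none of them past the test.

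The promoters of 3 genes are printed because they hold the motif of a factor class at genes that rose: the AP-1 letters TGANTCA at Emp1 and Plaur, and the antioxidant response element (ARE) letters TGACNNNGC at Klf6. Emp1 is a membrane protein of the PMP22 family, and Plaur the urokinase receptor. Sequences are RefSeq's for GRCm38.p6, 250 bases before to 50 after the gene's start, 5′ to 3′ on the plus strand, with the matched letters in capitals. They lie at chr6:135362681-135362980 (Emp1, matches from bases 106 and 226), chr7:24462233-24462532 (Plaur, base 182) and chr13:5861239-5861538 (Klf6, base 77).
Emp1: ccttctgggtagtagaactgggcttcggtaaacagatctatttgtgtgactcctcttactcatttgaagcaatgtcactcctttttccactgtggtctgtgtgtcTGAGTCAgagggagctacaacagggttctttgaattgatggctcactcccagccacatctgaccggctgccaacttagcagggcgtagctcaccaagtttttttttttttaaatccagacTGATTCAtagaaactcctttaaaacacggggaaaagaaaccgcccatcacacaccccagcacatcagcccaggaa
Plaur: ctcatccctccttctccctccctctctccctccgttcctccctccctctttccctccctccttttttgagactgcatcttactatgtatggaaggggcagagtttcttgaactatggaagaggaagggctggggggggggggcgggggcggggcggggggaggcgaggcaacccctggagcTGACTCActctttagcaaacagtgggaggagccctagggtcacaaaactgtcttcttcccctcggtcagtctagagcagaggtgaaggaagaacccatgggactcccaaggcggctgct
Klf6: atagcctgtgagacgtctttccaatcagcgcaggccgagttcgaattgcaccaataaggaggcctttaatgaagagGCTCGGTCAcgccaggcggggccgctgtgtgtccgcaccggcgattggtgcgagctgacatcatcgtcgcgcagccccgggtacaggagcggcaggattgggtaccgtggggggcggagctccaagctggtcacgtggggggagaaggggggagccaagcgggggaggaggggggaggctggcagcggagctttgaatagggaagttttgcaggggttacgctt

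Emp1 had 3.08, 6.25 and 12.9 CPM in the LPS plus PGPC libraries, against 0.268, 0 and 0 CPM in the LPS libraries. It was at or under the floor in the LPS libraries, and the ratio of the summed counts, scaled for depth, was 43.2 (95% counting interval 14.6 to 211), with an adjusted p of 0.00168. Plaur, named after its values were seen, had 52, 16.7 and 24.8 CPM in the LPS plus PGPC libraries, against 3.93, 2.36 and 4.71 CPM in the LPS libraries, a log2 fold change of 3.03 ± 0.56 (adjusted p = 0.00438) without overlap, and was called in all 16 alternatives. On either strand the AP-1 letters were in 8.21% of the promoters of called higher genes, 5.45% of those of called lower genes, 6.4% of those of all tested genes and 7.81% of all 32851 windows. Shares for gene sets count each gene with a match in any of its windows. Shares of all windows count each window, so they are an unlike measure. ARE letters were in 26.9% of promoters of higher genes (36 of 134 with a promoter in the table), 14.5% of those of lower genes (8 of 55), 17.0% of those of the 9428 tested genes with one and 12.4% of all windows. Of 10 motifs searched, the glucocorticoid response element (GRE) was in 6.72% of promoters of higher genes (9 of 134), in 0 of 55 of lower genes, in 2.45% of those of all tested genes and in 3.11% of all windows. The remaining 7 motifs were each in 0 to 2.24% of promoters of higher genes, against 0.53% to 4.16% of those of all tested genes. Of 384 windows with both AP-1 and ARE letters, 149 had overlapping matches. A match describes the letters in this window and no more.

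The lysosome list had 5 higher and 0 lower among 30 tested, with a median of 0.37. Ctsh, a cathepsin with aminopeptidase activity (chr9:90054152-90076089), had 952, 1115 and 1098 CPM in the LPS plus PGPC libraries, against 229, 205 and 319 CPM in the LPS libraries. Its LPS plus PGPC libraries lay within a narrow range, all above the LPS libraries, and the log2 fold change was 2.07 ± 0.45 (adjusted p = 0.0154). Atp6ap1, an accessory subunit of the proton pump, came to 309, 221 and 216 CPM with LPS plus PGPC, against 82.2, 86.2 and 91 CPM with LPS. Its groups did not overlap either, at a log2 fold change of 1.52 (adjusted p = 0.0304). Npc2, given above, is also on this list. Among the 11 cathepsin genes tested, a family gathered after its values were seen, Ctsh was the one call, and their median was 0.90. Ctsh lost its call without LPS replicate 1 or 2 (adjusted p up to 0.0925). Atp6ap1 lost its call without LPS plus PGPC replicate 1 or 3 or LPS replicate 1, 2 or 3, or in the fit on 24 libraries (adjusted p up to 0.128).

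Antigen presentation genes on MHC class I rose in part. Of 21 tested 3 were higher and 0 lower, with a median of 0.87, and 19 of the 21 log2 fold changes were positive, against 6610 of 12463 over all tested genes. H2-D1, a classical class I heavy chain, had 12206, 3569 and 3636 CPM in the LPS plus PGPC libraries, against 1006, 1437 and 1847 CPM in the LPS libraries. Replicate 1 with LPS plus PGPC was far above the other two, which still lay above every LPS library, and the log2 fold change was 2.18 ± 0.43 (adjusted p = 0.00877). H2-K1, the other classical heavy chain, had 2801, 1453 and 1340.4 CPM in the LPS plus PGPC libraries, against 426, 533 and 726 CPM in the LPS libraries, again with replicate 1 highest and no overlap, at 1.73 ± 0.36 (adjusted p = 0.0119). H2-Q7, a non-classical chain, followed at 195, 154 and 139 CPM with LPS plus PGPC, against 34.8, 38.4 and 55 CPM with LPS, 1.93 ± 0.49 (adjusted p = 0.0357). These 3 genes are close in sequence, and reads can be split between them in counting. Psmb8, a subunit of the immunoproteasome, had 1826, 957 and 849 CPM with LPS plus PGPC, against 336, 443 and 493 CPM with LPS and did not pass at 1.51 ± 0.42 (adjusted p = 0.0599). H2-D1 lost its call without LPS plus PGPC replicate 1 or LPS replicate 1 or 2, or in the fit on 6 libraries (adjusted p up to 0.0773). H2-K1 lost its call without LPS plus PGPC replicate 1 or LPS replicate 1 or 2 (adjusted p up to 0.0925). H2-Q7 lost its call without any 1 of the 6 libraries, or in the fit on 12 libraries (adjusted p up to 0.169).

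Among 15 class II presentation genes tested 1 was higher and 0 lower, with a median of 0.20. The call was Ifi30, a lysosomal thiol reductase that unfolds antigen, at 89.7, 267 and 249.7 CPM with LPS plus PGPC, against 28.2, 37.2 and 48.3 CPM with LPS, 2.42 ± 0.57 (adjusted p = 0.0247), lost without LPS plus PGPC replicate 2 or 3 or LPS replicate 1 or 2 (adjusted p up to 0.138). Cd74, the invariant chain that escorts class II molecules, stood without overlap at 8621, 14151 and 12851 CPM with LPS plus PGPC, against 4475, 4190.2 and 5709.6 CPM with LPS but at 1.31 ± 0.36 (adjusted p = 0.0599). H2-Aa, a class II chain, had 1807, 4113 and 3608 CPM with LPS plus PGPC, against 1429, 1003 and 1236 CPM with LPS, 1.38 (adjusted p = 0.0972). March1, the ligase that removes class II from the surface, had 5.65, 10.2 and 5.62 CPM with LPS plus PGPC, against 29.6, 47.8 and 21.5 CPM with LPS, -2.19 (adjusted p = 0.0637). All 3 missed the test although none overlapped between the groups.

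Tetraspanins, which organize other proteins in membrane patches, were gathered as a family after their values were seen. They held 3 higher and 0 lower calls of 19 tested, with a median of 0.72. Cd9 had 68.3, 76.6 and 115 CPM in the LPS plus PGPC libraries, against 18.2, 12.4 and 15 CPM in the LPS libraries. Cd63, also a protein of late endosomes, had 299, 160.3 and 193 CPM in the LPS plus PGPC libraries, against 31, 27.2 and 40.03 CPM in the LPS libraries. Neither overlapped, and the log2 fold changes were 2.49 ± 0.46 (adjusted p = 0.00461) for Cd9 and 2.73 ± 0.47 (adjusted p = 0.00305) for Cd63. Cd81, named after its values were seen, stood at 62.7, 14.6 and 23.5 CPM with LPS plus PGPC, against 6.07, 4.13 and 4.12 CPM with LPS, 2.76 ± 0.53 (adjusted p = 0.00626), and was called in all 16 alternatives.

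Families that bind calcium, phospholipid or sugar at membranes are given by all their tested members and were picked after their values were seen. Of 9 S100 genes 3 were higher and 0 lower, with a median of 2.24. S100a10, the partner of annexin A2, had 133, 154 and 188 CPM in the LPS plus PGPC libraries, against 23.6, 20.1 and 21.5 CPM in the LPS libraries, without overlap, and a log2 fold change of 2.86 ± 0.48 (adjusted p = 0.00283). S100a4 stood at 75.6, 286 and 273 CPM with LPS plus PGPC, against 29.6, 10.04 and 17.4 CPM with LPS, 3.44 (adjusted p = 0.00639). S100a6 stood at 89.1, 169 and 205 CPM with LPS plus PGPC, against 36.2, 36.6 and 42.7 CPM with LPS, 2.00 (adjusted p = 0.0392). Of 9 annexin genes 2 were higher and 0 lower, with a median of 0.95. Anxa2 had 2455, 1371 and 1861 CPM in the LPS plus PGPC libraries, against 298, 270.4 and 429 CPM in the LPS libraries, all 3 LPS plus PGPC values being several times the LPS values, and its log2 fold change was 2.51 ± 0.46 (adjusted p = 0.00412). Anxa4 had 333, 516 and 599.96 CPM with LPS plus PGPC, against 94.1, 102 and 137 CPM with LPS, 2.12 (adjusted p = 0.00919). Among 5 galectin genes 2 were higher and 0 lower, with a median of 1.20. Lgals3 stood at 687, 438 and 594 CPM with LPS plus PGPC, against 111, 122 and 147 CPM with LPS, 2.18 ± 0.39 (adjusted p = 0.00412). Lgals1 stood at 62.5, 54.6 and 80.1 CPM with LPS plus PGPC, against 18.2, 8.86 and 11.5 CPM with LPS, 2.32 (adjusted p = 0.0154). The calls of S100a10, Anxa2 and Lgals3 held in 16 of 16 alternatives. S100a4 lost its call without LPS replicate 2 (adjusted p up to 0.0565). S100a6 lost its call without LPS plus PGPC replicate 2 or 3 or LPS replicate 1, 2 or 3, or in the fit on 24 libraries (adjusted p up to 0.16). Anxa4 lost its call without LPS replicate 1 or 2 (adjusted p up to 0.0729). Lgals1 lost its call without LPS plus PGPC replicate 3 or LPS replicate 2 or 3 (adjusted p up to 0.0882).

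Receptors of the TNF receptor superfamily, also gathered after their values were seen, held 5 higher and 0 lower calls of 21 tested, with a median of 1.52. Tnfrsf9, the costimulatory receptor 4-1BB, had 49.2, 41 and 54.8 CPM in the LPS plus PGPC libraries, against 5.98, 10.6 and 11.2 CPM in the LPS libraries, without overlap, at 2.40 ± 0.61 (adjusted p = 0.038). Tnfrsf12a, the receptor of TWEAK, stood at 9.63, 2.5 and 9.08 CPM with LPS plus PGPC, against 0.803, 0 and 0.589 CPM with LPS, 3.52 (adjusted p = 0.0273). Tnfrsf13c, the BAFF receptor, stood at 6.16, 3.87 and 11.1 CPM with LPS plus PGPC, against 1.07, 0.59 and 0.294 CPM with LPS, 3.22 (adjusted p = 0.00968). The TRAIL-binding decoy receptors Tnfrsf22 and Tnfrsf23 came to 3.88 (adjusted p = 0.047) and 3.22 (adjusted p = 0.0195). Tnfrsf9 lost its call without any 1 of the 6 libraries, or in the fit on 12 libraries (adjusted p up to 0.201). Tnfrsf12a lost its call without LPS plus PGPC replicate 1 or 3 or LPS replicate 1, 2 or 3 (adjusted p up to 0.111). Tnfrsf13c lost its call without LPS plus PGPC replicate 3 or LPS replicate 2 (adjusted p up to 0.0527). Tnfrsf22 lost its call without LPS plus PGPC replicate 1 or 3 or LPS replicate 1, 2 or 3, or in the fits on 12 and 6 libraries (adjusted p up to 0.159). Tnfrsf23 lost its call without LPS replicate 1 or 3, or in the fits on 12 and 6 libraries (adjusted p up to 0.134).

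Of 16 cytokine genes tested 0 were higher and 1 lower, with a median of -0.95, and 12 had a negative log2 fold change, against 5751 of 12463 over all tested genes. The call was Ebi3, the subunit shared by interleukin-27 and interleukin-35, which had 7.45, 32.4 and 24.7 CPM in the LPS plus PGPC libraries, against 264, 98.6 and 90.7 CPM in the LPS libraries. The groups did not overlap, and the log2 fold change was -2.81 ± 0.51 (adjusted p = 0.00412), lost without LPS replicate 1 (adjusted p up to 0.0501). Untreated cDC1 had 22.2, 28.1 and 28.8 CPM of Ebi3.

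Tnf had 27.1, 85.7 and 86.5 CPM in the LPS plus PGPC libraries, against 249.7, 142 and 151 CPM in the LPS libraries. Its LPS values all lay above its LPS plus PGPC values, yet at -1.45 ± 0.46 (adjusted p = 0.104) it was not called. Il6 was likewise not called, with 2.05, 15 and 16.2 CPM with LPS plus PGPC, against 29.1, 39 and 51.8 CPM with LPS and -1.84 ± 0.63 (adjusted p = 0.134). Il1b, the cytokine that inflammasomes mature, overlapped at 202, 385 and 324 CPM with LPS plus PGPC, against 278, 194 and 228 CPM with LPS, 0.38 ± 0.64 (adjusted p = 0.831). Il1a also overlapped at -0.30 (adjusted p = 0.897), as did the interleukin-12 subunit gene Il12b at -0.29 (adjusted p = 0.88). Il10, an anti-inflammatory cytokine, stood at 0.642, 1.59 and 0.656 CPM with LPS plus PGPC, against 5.27, 4.72 and 6.18 CPM with LPS, -2.46 (adjusted p = 0.323). Il15, which sustains NK and CD8 T cells, had higher values with PGPC, 9.12, 21.8 and 23.8 CPM with LPS plus PGPC, against 4.2, 2.36 and 3.83 CPM with LPS, and missed the test at 2.35 (adjusted p = 0.0555).

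In the inflammasome and pyroptosis list edgeR called 0 of 21 genes, with 1 higher and 5 lower at an unadjusted p under 0.05, 0 higher and 1 lower call by DESeq2 and a median of -0.30. Nlrp3, the sensor of the inflammasome, had 4.11, 35.6 and 31.9 CPM in the LPS plus PGPC libraries, against 37.7, 66.1 and 70.1 CPM in the LPS libraries, replicate 1 with LPS plus PGPC being by far the lowest, and a log2 fold change of -1.27 ± 0.52 (adjusted p = 0.212). Nek7, which helps to activate it, had 22.9, 24 and 31.6 CPM with LPS plus PGPC, against 60.7, 94.5 and 56.5 CPM with LPS, -1.43 (adjusted p = 0.116). Nlrc4, another sensor, came to -1.59 (adjusted p = 0.256) and Casp8 to 0.75 (adjusted p = 0.248). Casp1, the protease that cuts pro-interleukin-1 beta, came to 0.53 (adjusted p = 0.694) and Casp4, which binds LPS in the cytosol, to 0.53 (adjusted p = 0.734). The adaptor gene Pycard came to -0.22 (adjusted p = 0.838) and the pore-forming Gsdmd to 0.86 (adjusted p = 0.37). The libraries of the 2 groups overlapped for Casp1, Casp4, Pycard and Gsdmd.

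In the NF-kB and feedback list edgeR called 0 of 22, with 1 higher and 7 lower at an unadjusted p under 0.05, 0 higher and 3 lower by DESeq2 and a median of -0.55. Nfkbiz, an inducible regulator of Il6, stood at 59.2, 196 and 177 CPM with LPS plus PGPC, against 357, 396 and 473 CPM with LPS, -1.50 (adjusted p = 0.158). Tnfaip2, an early TNF-induced gene, stood at 110.2, 109.96 and 99.7 CPM with LPS plus PGPC, against 254, 289.9 and 341 CPM with LPS, -1.47 (adjusted p = 0.127). Tnip1 reached -1.21 (adjusted p = 0.12) and Birc2 -1.58 (adjusted p = 0.129). None of these 4 overlapped between the groups.

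For chemokines edgeR called 0 of 17, with 5 higher and 1 lower at an unadjusted p under 0.05, 1 higher and 0 lower by DESeq2 and a median of 0.47. Ccl5, which draws T cells, had 1178, 2508 and 2495 CPM with LPS plus PGPC, against 1064, 769 and 897 CPM with LPS, 1.18 (adjusted p = 0.129). Cxcl16 came to 1.22 (adjusted p = 0.112), Ccl17 to 3.59 (adjusted p = 0.222) and the interferon-induced Cxcl10 to -0.75 (adjusted p = 0.599), with overlap for Cxcl10. Of interferon-stimulated genes edgeR called 0 of 38, with 1 higher and 0 lower at an unadjusted p under 0.05, 0 by DESeq2 and a median of 0.08. Gbp2, a GTPase of host defence, came to 1.20 (adjusted p = 0.262), Ifih1, a sensor of double-stranded RNA, to -0.85 (adjusted p = 0.323) and Irf9 to -0.95 (adjusted p = 0.319).

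The list of LPS and oxidized phospholipid sensing had 0 higher and 1 lower call of 24 tested, with a median of -0.25. The call was Marco, a scavenger receptor, with 21.1, 20.9 and 15.5 CPM in the LPS plus PGPC libraries, against 384, 88 and 63 CPM in the LPS libraries. Without overlap, and with LPS replicate 1 far above the other LPS libraries, it reached -3.23 ± 0.83 (adjusted p = 0.0474), and was lost without LPS plus PGPC replicate 1, 2 or 3 or LPS replicate 1 or 2, in the DESeq2 fit, or without the ribosomal RNA genes (adjusted p up to 0.33). Cd14 had 172, 160.2 and 162 CPM with LPS plus PGPC, against 360.3, 193 and 98.3 CPM with LPS and overlapped, at -0.40 (adjusted p = 0.778). Tlr4 overlapped too at 0.44 (adjusted p = 0.766). Cd300ld came to 1.90 (adjusted p = 0.104), Trem2, a receptor of lipids and dying cells, to 1.64 (adjusted p = 0.129) and Pla2g7, the phospholipase that cleaves oxidized phospholipids, to -1.74 (adjusted p = 0.0752), none past the test.

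Of 22 maturation and T cell costimulation genes tested 1 was higher, Cd63 as given above, and 0 lower, with a median of 0.00. Cd40, through which T cells license dendritic cells, had 134, 164 and 111 CPM in the LPS plus PGPC libraries, against 625, 409.8 and 369 CPM in the LPS libraries. The groups did not overlap, with the lowest LPS library above the highest LPS plus PGPC library, but it was not called at -1.78 ± 0.52 (adjusted p = 0.0716). The ligands of CD28 were not called either, Cd80 at 3.34, 3.07 and 4.31 CPM with LPS plus PGPC, against 27.9, 16.5 and 11.5 CPM with LPS, -2.38 (adjusted p = 0.0965), and Cd86 at -1.04 (adjusted p = 0.235). Cd200, an inhibitory ligand, reached 1.66 (adjusted p = 0.0628) and Socs2 1.63 (adjusted p = 0.0647).

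Among 28 genes of chemokine receptors and migration 1 was higher, Cd9, and 1 lower, with a median of 0.05. Itgal, the alpha chain of the integrin LFA-1, had 40.2, 102 and 65.4 CPM in the LPS plus PGPC libraries, against 344, 309 and 259.6 CPM in the LPS libraries, without overlap, at -2.14 ± 0.42 (adjusted p = 0.00837), lost without LPS plus PGPC replicate 1 (adjusted p up to 0.0526). Itgax, the alpha chain of CD11c, had 27.6, 41.4 and 14.1 CPM with LPS plus PGPC, against 162, 168 and 116 CPM with LPS, also without overlap, at -2.42 ± 0.67 (adjusted p = 0.0599). Itgb7 was at 1.69 (adjusted p = 0.116). Ccr7, the receptor that guides dendritic cells to lymph nodes, overlapped at 4251, 2221 and 2719 CPM with LPS plus PGPC, against 4703, 2018 and 1571 CPM with LPS, 0.15 ± 0.52 (adjusted p = 0.931). C5ar1, the receptor of complement C5a and named after its values were seen, had 20.03, 25.4 and 16.3 CPM with LPS plus PGPC, against 6.43, 5.9 and 4.71 CPM with LPS, 1.84 (adjusted p = 0.0221), lost without LPS plus PGPC replicate 2 or LPS replicate 1, 2 or 3 (adjusted p up to 0.0925).

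**Figure D3:**
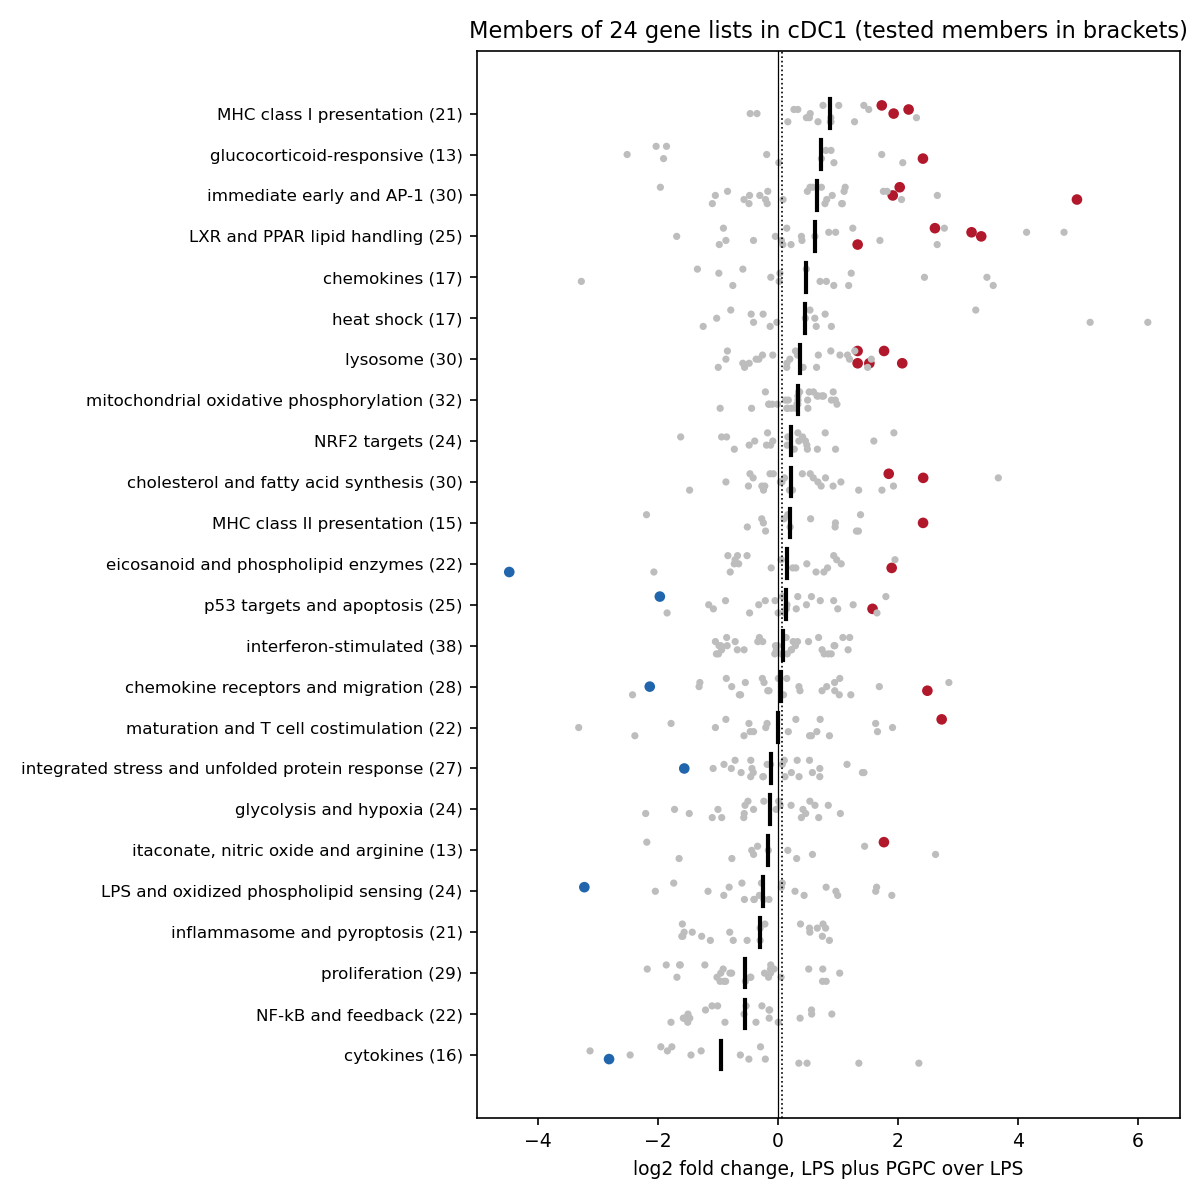
Log2 fold changes, LPS plus PGPC over LPS in cDC1, of the tested members of each process list (1 point per gene, coloured where called), with the median of each list as a bar and the median of all tested genes, 0.07, as a dotted line. The points of the lysosome, lipid handling and MHC class I lists include calls on the higher side, and those of the inflammasome and NF-kB lists include none.

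The genes that fell furthest with PGPC included some that were at or near 0 in untreated cDC1. Sp6, a zinc finger transcription factor (chr11:97013394-97024734), had 5.26, 1.48 and 2.15 CPM in the LPS plus PGPC libraries, against 103, 100.4 and 138 CPM in the LPS libraries. Even the highest LPS plus PGPC library was far below every LPS library, and the log2 fold change was -5.27 ± 0.67 (adjusted p = 0.000469). Untreated cDC1 held 0.855, 0 and 0 CPM of Sp6. Shisa3, a membrane protein that restrains Wnt and FGF receptors (chr5:67607882-67623552), had 5.78, 18.6 and 2.53 CPM in the LPS plus PGPC libraries, against 305, 217 and 239 CPM in the LPS libraries. The groups were again far apart, at -4.82 ± 0.78 (adjusted p = 0.00362), and Shisa3 was listed at 0 in all 3 untreated libraries. Fam43a had 1.93, 4.55 and 2.15 CPM in the LPS plus PGPC libraries, against 83.6, 49 and 38.3 CPM in the LPS libraries, with no overlap, and -4.30 ± 0.64 (adjusted p = 0.00114).

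Several fallen genes are parts of receptor signalling. Pik3cg, the catalytic subunit of the phosphoinositide 3-kinase downstream of G-protein-coupled receptors, had 16, 41.4 and 23.3 CPM in the LPS plus PGPC libraries, against 137, 247 and 236 CPM in the LPS libraries, without overlap, at -2.94 ± 0.53 (adjusted p = 0.00412). Pik3ap1, the adaptor BCAP that ties phosphoinositide 3-kinase to Toll-like receptors, had 109.8, 123 and 68.4 CPM in the LPS plus PGPC libraries, against 979, 801 and 491 CPM in the LPS libraries, at -2.92 ± 0.69 (adjusted p = 0.0247). S1pr3, a sphingosine-1-phosphate receptor, stood at 0.514, 1.36 and 0.843 CPM with LPS plus PGPC, against 19.7, 26.6 and 27.4 CPM with LPS, -4.72 (adjusted p = 0.0285). Fcrl5, an Fc receptor-like protein, stood at 0.899, 1.36 and 2.62 CPM with LPS plus PGPC, against 43.7, 19.5 and 13.5 CPM with LPS, -3.95 (adjusted p = 0.0263). Dgkh, a diacylglycerol kinase, came to -3.39 (adjusted p = 0.0424) and Ralgps2, an exchange factor of Ral, to -3.70 (adjusted p = 0.0379). None of these overlapped. Pik3ap1 lost its call without LPS plus PGPC replicate 1 or 3 or LPS replicate 1 or 2 (adjusted p up to 0.121). S1pr3 lost its call without any 1 of the 6 libraries, or in the fit on 12 libraries (adjusted p up to 0.123). Fcrl5 lost its call without LPS plus PGPC replicate 1, 2 or 3 or LPS replicate 1 or 2 (adjusted p up to 0.248). Dgkh and Ralgps2 lost their calls without any 1 of the 6 libraries (adjusted p up to 0.167 and 0.154).

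The remaining fallen genes that the naming rule picked were transporters, enzymes and low-count genes. Slc16a6, a monocarboxylate transporter, had 0, 5.12 and 1.59 CPM with LPS plus PGPC, against 26.1, 36 and 26.2 CPM with LPS, -3.69 (adjusted p = 0.0159). Abcb1b, a multidrug exporter, had 3.6, 7.16 and 5.15 CPM with LPS plus PGPC, against 52, 41.9 and 33 CPM with LPS, -2.99 (adjusted p = 0.0209). Aldh6a1, a mitochondrial aldehyde dehydrogenase, came to -2.95 (adjusted p = 0.0119). Ehf, an ETS factor of epithelia, held 0, 0.114 and 0 CPM with LPS plus PGPC, against 4.73, 12.4 and 5.3 CPM with LPS, lower by a counting ratio of 154 (95% counting interval 26.9 to 6146). Adamts4, a protease of the matrix, held 0.385, 0 and 0 CPM with LPS plus PGPC, against 4.73, 7.68 and 3.24 CPM with LPS, lower by 42.9 (95% counting interval 14.2 to 213). Mgll, the lipase that ends endocannabinoid signals, was at 0 in all 3 LPS plus PGPC libraries, against 6.34, 0.59 and 3.83 CPM with LPS. By the LPS group mean it was at least 10.7-fold lower, against the floor of 3 counts over the group. LPS replicate 2 was itself under its floor of 1.77 CPM. The groups did not overlap for any of the 6. Slc16a6 lost its call without LPS plus PGPC replicate 3 or LPS replicate 2, or in the fit on 6 libraries (adjusted p up to 0.0853). Abcb1b lost its call without LPS plus PGPC replicate 1 or 3 or LPS replicate 1 or 2 (adjusted p up to 0.1). Aldh6a1 lost its call without LPS plus PGPC replicate 3 or LPS replicate 2 (adjusted p up to 0.0824). Ehf lost its call without any 1 of the 6 libraries, or in the fit on 12 libraries (adjusted p up to 0.167). Adamts4 lost its call without LPS plus PGPC replicate 2 or 3 or LPS replicate 1, 2 or 3, or in the fit on 12 libraries (adjusted p up to 0.148). Mgll lost its call without LPS plus PGPC replicate 3 or LPS replicate 1 (adjusted p up to 0.0672).

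Among the most abundant called genes, higher ones included Selplg, the ligand of P-selectin, with 1616, 1806 and 1864 CPM in the LPS plus PGPC libraries, against 623, 349.6 and 555 CPM in the LPS libraries, at 1.79 ± 0.38 (adjusted p = 0.0135). Cst3, the cathepsin inhibitor cystatin C, had 1651, 2112 and 2173 CPM with LPS plus PGPC, against 554, 609 and 635 CPM with LPS, 1.72 (adjusted p = 0.0291). Lsp1, which binds actin in leukocytes, had 1885, 1715 and 2075 CPM with LPS plus PGPC, against 775, 521 and 726 CPM with LPS, 1.49 (adjusted p = 0.0162). Vim, the intermediate filament vimentin, named after its values were seen, had 1279, 666 and 886 CPM with LPS plus PGPC, against 249.97, 263 and 244 CPM with LPS, 1.90 (adjusted p = 0.00283). On the lower side Serp1, a stabilizer of newly made membrane proteins in the endoplasmic reticulum, had 252, 368 and 283 CPM in the LPS plus PGPC libraries, against 1709, 1462 and 1142 CPM in the LPS libraries, at -2.26 ± 0.38 (adjusted p = 0.00296). Lcp1, the actin bundler L-plastin, had 1229.5, 2172 and 1784 CPM with LPS plus PGPC, against 6534, 5189.9 and 4495 CPM with LPS, -1.65 (adjusted p = 0.0247). Actr2, a core of the Arp2/3 complex, had 162, 217 and 201 CPM with LPS plus PGPC, against 609, 559 and 381 CPM with LPS, -1.42 (adjusted p = 0.0448). Arhgap27, a GTPase-activating protein, had 151, 152 and 91 CPM with LPS plus PGPC, against 656, 552 and 493 CPM with LPS, -2.11 (adjusted p = 0.0301). None of these genes overlapped between the groups. Vim and Serp1 held their calls in 16 of 16 alternatives. Selplg lost its call without LPS replicate 2, or in the fit on 24 libraries (adjusted p up to 0.0882). Cst3 lost its call without LPS plus PGPC replicate 2 or 3 or LPS replicate 1, 2 or 3, or in the fit on 24 libraries (adjusted p up to 0.127). Lsp1 lost its call without LPS plus PGPC replicate 3 or LPS replicate 1 or 2, or in the fit on 24 libraries (adjusted p up to 0.0924). Lcp1 lost its call without LPS plus PGPC replicate 1 or 3 or LPS replicate 1 or 2, or in the fit on 24 libraries (adjusted p up to 0.123). Actr2 lost its call without any 1 of the 6 libraries, in the fit on 24 libraries, with no filter on low counts, or without CT010467.1 and the ribosomal RNA genes (adjusted p up to 0.179). Arhgap27 lost its call without any 1 of the 6 libraries, or in the fit on 24 libraries (adjusted p up to 0.145).

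Of 22 eicosanoid and phospholipid enzymes tested 1 was higher and 1 lower, with a median of 0.15, against 1.93% called either way over all tested genes. Alox5ap, which presents arachidonic acid to 5-lipoxygenase for leukotriene synthesis, had 168, 158 and 146 CPM in the LPS plus PGPC libraries, against 43.6, 46.6 and 36.8 CPM in the LPS libraries. It did not overlap, at 1.90 ± 0.39 (adjusted p = 0.0101), and untreated cDC1 had 449, 617 and 451 CPM. Ptger2, a receptor of prostaglandin E2, had 0.77, 0.682 and 0.656 CPM in the LPS plus PGPC libraries, against 18.5, 20.1 and 9.71 CPM in the LPS libraries. All LPS plus PGPC values were below 1 CPM and under every LPS value, at -4.48 ± 0.89 (adjusted p = 0.00842). Pla2g4a, the cytosolic phospholipase that frees arachidonic acid, overlapped at -2.07 (adjusted p = 0.187), and Lpcat3, which puts it back, came to 0.83 (adjusted p = 0.327). The call of Alox5ap was lost without LPS replicate 1 (adjusted p up to 0.0617).

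Stress, metabolism and growth lists held few calls. In the p53 and apoptosis list Bad, a promoter of apoptosis, was higher at 43, 29.6 and 38.1 CPM with LPS plus PGPC, against 15.7, 7.68 and 13 CPM with LPS, 1.58 (adjusted p = 0.0372). Bcl2l1, which encodes the survival protein Bcl-xL, was lower at 67.8, 62.3 and 54 CPM with LPS plus PGPC, against 404, 163 and 152 CPM with LPS, -1.97 ± 0.41 (adjusted p = 0.0105). These were the calls of 25 tested, with a median of 0.14. Ccng1, a p53 target, was at -1.15 (adjusted p = 0.0758) and Plk2 at 1.65 (adjusted p = 0.0566). Ass1, which makes argininosuccinate for arginine synthesis, had 1372, 719 and 635 CPM with LPS plus PGPC, against 232, 255 and 313 CPM with LPS, 1.77 ± 0.43 (adjusted p = 0.028). It was the one call, higher, of 13 arginine, nitric oxide and itaconate genes, with a median of -0.16. Acod1, the maker of itaconate, had 561, 801 and 522 CPM with LPS plus PGPC, against 2877, 1846 and 1177 CPM with LPS, -1.65 (adjusted p = 0.293). Asl came to 1.45 (adjusted p = 0.0687) and Gch1 to -0.77 (adjusted p = 0.414). The integrated stress and unfolded protein list had 0 higher and 1 lower of 27, with a median of -0.12. The call was Shmt2, a mitochondrial serine enzyme, at 57.1, 43.3 and 43.7 CPM with LPS plus PGPC, against 181, 139 and 105 CPM with LPS, -1.56 (adjusted p = 0.0353). Atf3 reached 1.43 (adjusted p = 0.0992), Ppp1r15a 1.15 (adjusted p = 0.192) and Phgdh -1.08 (adjusted p = 0.194). Bad lost its call without LPS plus PGPC replicate 1 or 3 or LPS replicate 1, 2 or 3, in the fits on 24, 12 and 6 libraries, or with no filter on low counts (adjusted p up to 0.171). Bcl2l1 lost its call without LPS plus PGPC replicate 3 or LPS replicate 1 (adjusted p up to 0.118). Ass1 lost its call without LPS plus PGPC replicate 1 or LPS replicate 1, 2 or 3 (adjusted p up to 0.134). Shmt2 lost its call without any 1 of the 6 libraries, in the fit on 24 libraries, or with no filter on low counts (adjusted p up to 0.167).

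In 5 further lists edgeR called 0 genes. At an unadjusted p under 0.05 the 24 NRF2 targets had 1 higher and 0 lower (DESeq2 0, median 0.22). On the same terms the 17 heat shock genes had 3 higher and 3 lower (DESeq2 1 and 1, median 0.46) and the 24 glycolysis and hypoxia genes 2 higher and 4 lower (DESeq2 0 and 2, median -0.13). The 29 proliferation genes had 0 higher and 6 lower (DESeq2 0 and 2, median -0.54) and the 32 oxidative phosphorylation genes 4 higher and 1 lower (DESeq2 0 and 1, median 0.33). Nqo1, an NRF2 target that reduces quinones, overlapped at 5.39, 23.8 and 36.5 CPM with LPS plus PGPC, against 6.96, 3.54 and 6.18 CPM with LPS, 1.93 (adjusted p = 0.192). Hmox1, which degrades heme and responds to oxidized lipid, had 290.3, 397 and 393 CPM with LPS plus PGPC, against 274, 233 and 261 CPM with LPS, 0.49 (adjusted p = 0.592). Slc7a11, the cystine importer, came to -0.85 (adjusted p = 0.37) and Txnrd1 to -0.94 (adjusted p = 0.333). Hspb1 (heat shock protein 27) was at 4.24, 0 and 14.7 CPM with LPS plus PGPC, against 0, 0 and 0.294 CPM with LPS, with overlap and not called. Hspd1, the mitochondrial chaperone, came to -1.02 (adjusted p = 0.117) and Dnajb1 to 0.79 (adjusted p = 0.242). Hk2, which phosphorylates glucose, came to -2.20 (adjusted p = 0.101) and Hk3 to -1.72 (adjusted p = 0.225). Pkm, the last kinase of glycolysis, came to -1.09 (adjusted p = 0.242) and Ero1l to -1.48 (adjusted p = 0.125). Mki67, the proliferation marker, had 7.45, 21.5 and 8.52 CPM with LPS plus PGPC, against 29.2, 41.9 and 45.9 CPM with LPS, -1.64 (adjusted p = 0.12). Top2a came to -1.22 (adjusted p = 0.176), Mcm3 to -1.68 (adjusted p = 0.129) and Bub1b to -1.86 (adjusted p = 0.136). Of the mitochondrial genes Mdh2 came to 0.98 (adjusted p = 0.174), Sdhb to 0.96 (adjusted p = 0.259) and Idh3a to -0.96 (adjusted p = 0.157). Gpx4, which detoxifies lipid peroxides and was named after its values were seen, was called higher at 275, 189.7 and 155 CPM with LPS plus PGPC, against 54.5, 76.8 and 72.7 CPM with LPS, 1.61 (adjusted p = 0.0297), lost without LPS plus PGPC replicate 1 or LPS replicate 1, 2 or 3 (adjusted p up to 0.154).

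Genes of extracellular matrix and contractile cells were among those with the largest fold changes, and their values did not move evenly over the LPS plus PGPC libraries. Sparc, a matrix glycoprotein, had 22, 3.87 and 42.5 CPM in the LPS plus PGPC libraries, against 0, 1.18 and 1.77 CPM in the LPS libraries. Tagln, the smooth muscle protein transgelin, had 45.3, 16.3 and 93.8 CPM in the LPS plus PGPC libraries, against 0.0893, 2.36 and 6.48 CPM in the LPS libraries. In both, replicates 1 and 3 with LPS plus PGPC were high and replicate 2 was nearer to the LPS libraries, without overlap. Log2 fold changes were 5.02 ± 1.02 (adjusted p = 0.00968) for Sparc and 4.27 ± 0.97 (adjusted p = 0.0209) for Tagln. Cxcl12, a chemokine of marrow stroma, came to 23.2, 1.59 and 12.6 CPM with LPS plus PGPC, against 0, 0.59 and 0.883 CPM with LPS, 5.24 (adjusted p = 0.00349). Timp1, an inhibitor of metalloproteinases, came to 8.35, 2.39 and 20.1 CPM with LPS plus PGPC, against 0.0893, 0 and 0.883 CPM with LPS, 5.11 (adjusted p = 0.00841). Acta2, smooth muscle actin, and Serpinh1, a collagen chaperone, were named after their values were seen, and reached 3.20 (adjusted p = 0.0304) and 4.11 (adjusted p = 0.0212). Serpinh1 overlapped between the groups, at 17.2, 2.05 and 9.83 CPM with LPS plus PGPC, against 0, 2.36 and 0.589 CPM with LPS. Sparc lost its call without LPS replicate 1, or in the fit on 6 libraries (adjusted p up to 0.0837). Cxcl12 lost its call in the fit on 6 libraries (adjusted p up to 0.0557). Tagln lost its call without LPS plus PGPC replicate 3 or LPS replicate 1 or 2, or in the fit on 6 libraries (adjusted p up to 0.0966). Timp1 lost its call without LPS replicate 1 (adjusted p up to 0.106). Acta2 lost its call without LPS plus PGPC replicate 1 or 3 or LPS replicate 1 or 2, or in the fits on 12 and 6 libraries (adjusted p up to 0.145). Serpinh1 lost its call without LPS plus PGPC replicate 1 or 3 or LPS replicate 1 or 3, or in the fits on 12 and 6 libraries (adjusted p up to 0.149).

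Of other genes with large fold changes, several belong to the matrix or to focal adhesions. Lamb1, a laminin chain, stood at 11.4, 1.82 and 10.2 CPM with LPS plus PGPC, against 0, 0.59 and 1.18 CPM with LPS, 4.23 (adjusted p = 0.0119). Loxl2, which crosslinks collagen, came to 4.27 (adjusted p = 0.0221), and Fermt2, the integrin activator kindlin-2, to 4.83 (adjusted p = 0.0105). Tgfb1i1, a focal adhesion protein, stood at 19.9, 2.39 and 13.2 CPM with LPS plus PGPC, against 0.179, 0 and 1.18 CPM with LPS, 4.75 ± 0.81 (adjusted p = 0.00296). Angptl2 came to 4.76 (adjusted p = 0.00396) and Fam20a to 4.70 (adjusted p = 0.0272). Fhl2, a LIM domain protein, was higher by a counting ratio of 92.6 (95% counting interval 16.4 to 3682). Cd300lg was at 0 in all LPS libraries and at 8.99, 0.569 and 5.9 CPM with LPS plus PGPC, at least 5.29-fold higher. Epb41l1, a linker of membrane and cytoskeleton, had 5.91, 9.21 and 7.31 CPM in the LPS plus PGPC libraries, against 0.536, 0 and 0 CPM in the LPS libraries, without such a gap in replicate 2, at 4.43 ± 0.65 (adjusted p = 0.00114). Lamb1 lost its call without LPS replicate 1, or in the fits on 12 and 6 libraries (adjusted p up to 0.111). Fhl2 lost its call without LPS replicate 1 (adjusted p up to 0.0767). Loxl2 lost its call without LPS plus PGPC replicate 1 or 3 or LPS replicate 1 or 2, or in the fits on 12 and 6 libraries (adjusted p up to 0.139). Fermt2 lost its call without LPS plus PGPC replicate 1 or LPS replicate 1 or 2, or in the fit on 6 libraries (adjusted p up to 0.111). Angptl2 lost its call without LPS replicate 1, or in the fit on 6 libraries (adjusted p up to 0.0672). Fam20a lost its call without LPS plus PGPC replicate 1 or 3 or LPS replicate 1 or 3, or in the fits on 12 and 6 libraries (adjusted p up to 0.213). Cd300lg lost its call without LPS plus PGPC replicate 1 or 3 or LPS replicate 1, 2 or 3 (adjusted p up to 0.143).

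A list of 24 stromal cell genes, written after these values were seen, summed to 353, 77.7 and 489.5 CPM in LPS plus PGPC replicates 1, 2 and 3, against 11.2, 51.4 and 88.6 CPM in the LPS libraries. Replicate 2 with LPS plus PGPC lay between the LPS libraries, so the groups overlapped. Of the 22 tested 6 were called higher and 0 lower, with a median of 2.88 (2.79 with genes absent from LPS libraries at their bound). The same list summed to 1061 to 2067 CPM in cDC1 given PGPC without LPS, to 856 to 3229 CPM in untreated cDC1, and to 1190.1 to 2616 CPM over the cDC2 libraries. Of the 173 genes called higher, 53 (30.6%) had replicate 2 under 50% of the mean of replicates 1 and 3, against 1624 of all tested genes (13%). All 6 stromal calls were among the 53, but most of the 53 were not on the list. Klf6, Plaur, Cd81, Acss2 and H2-D1, given above, also had replicate 2 under 50% of that mean. Although 167 of the 173 were not on the list, it is short and does not hold every matrix or contractile gene. Lamb1, Loxl2, Fermt2 and Tgfb1i1, called above, are not on it. Fkbp10, also called and off the list, had 13.6, 0 and 6.46 CPM with LPS plus PGPC, against 0 in all LPS libraries. Whether stromal cells in the cultures had a part in these values was not tested. Fits with 1 LPS plus PGPC library alone were added after seeing the data, and take the spread from the other groups, so that the lone library is assumed to vary like them. They called 228 genes higher and 55 lower with replicate 1 alone, 12 higher and 1 lower with replicate 2 alone, and 102 higher and 13 lower with replicate 3 alone.

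**Figure D4:**
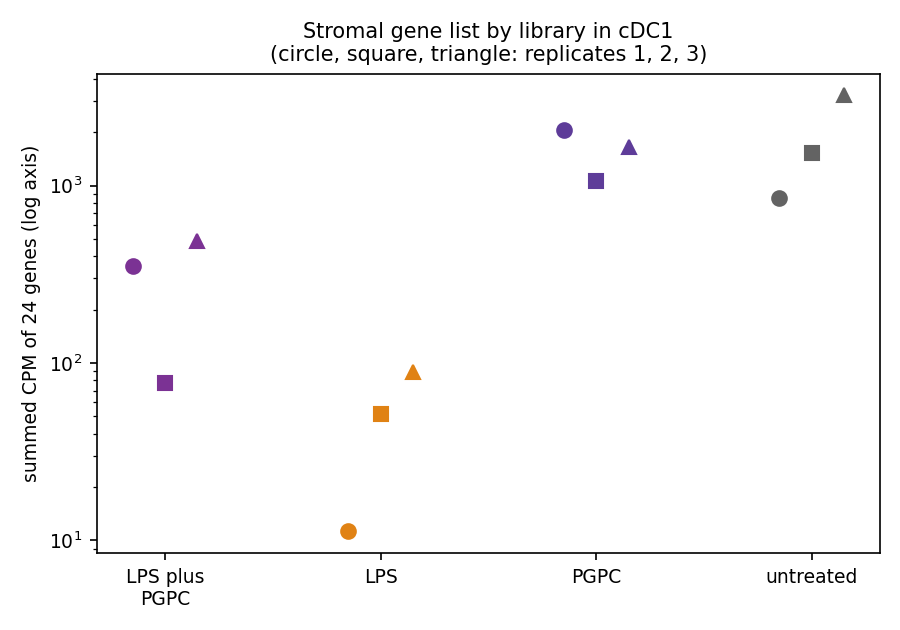
Summed CPM of the 24 stromal genes (log axis) in each cDC1 library with LPS plus PGPC, LPS, PGPC or no treatment. LPS plus PGPC replicate 2, at 77.7 CPM, lies among the LPS libraries at 11.2 to 88.6 CPM, replicates 1 and 3 lie above them, and the PGPC and untreated libraries lie higher still, from 856 CPM up.

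In cDC2 the same addition changed 48 of 12463 genes (0.385%), 35 higher (0.281%) and 13 lower (0.104%), in libraries that share none with the cDC1 comparison. The fit on these 6 libraries alone called 13 and DESeq2 190. Of the calls, 23 were common to both, which is 9.54% of those of cDC1 and 47.9% of those of cDC2, and they had the same direction in both: 19 higher and 4 lower. Shared higher genes included Lpl, Plin2, Tsc22d3, Klf2, Emp1, Cd9, Plaur, Alox5ap and Fdps, and the 4 lower ones were Sp6, Shisa3, Itgal and Igsf6, the last named after its values were seen. Tsc22d3 had 219, 187 and 147 CPM in the LPS plus PGPC libraries of cDC2, against 17.4, 14.5 and 5.87 CPM in their LPS libraries, a log2 fold change of 3.83 ± 0.41 (adjusted p = 1.35e-05). Sp6 had 0.297, 0 and 0 CPM in the LPS plus PGPC libraries of cDC2, against 8.7, 7.54 and 9.78 CPM in their LPS libraries, -5.81 ± 0.89 (adjusted p = 0.00213). Both genes therefore moved in cDC2 the way they did in cDC1, without overlap. Over the 173 higher genes of cDC1, 159 had a positive log2 fold change in cDC2 with a median of 0.85, against a median of 2.38 in cDC1, which chose them. Over the 68 lower genes 47 were negative in cDC2, with a median of -0.53 against -2.17. The median log2 fold change of all tested genes in cDC2 was 0.00837. Some called genes of cDC1 stood near 0 in cDC2, such as H2-D1 at 0.31 ± 0.42 (adjusted p = 0.967) and Cd63 at 0.37 ± 0.44 (adjusted p = 0.966), but the test of the difference did not call them (adjusted p = 0.413 for H2-D1 and 0.285 for Cd63).

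**Figure D5:**
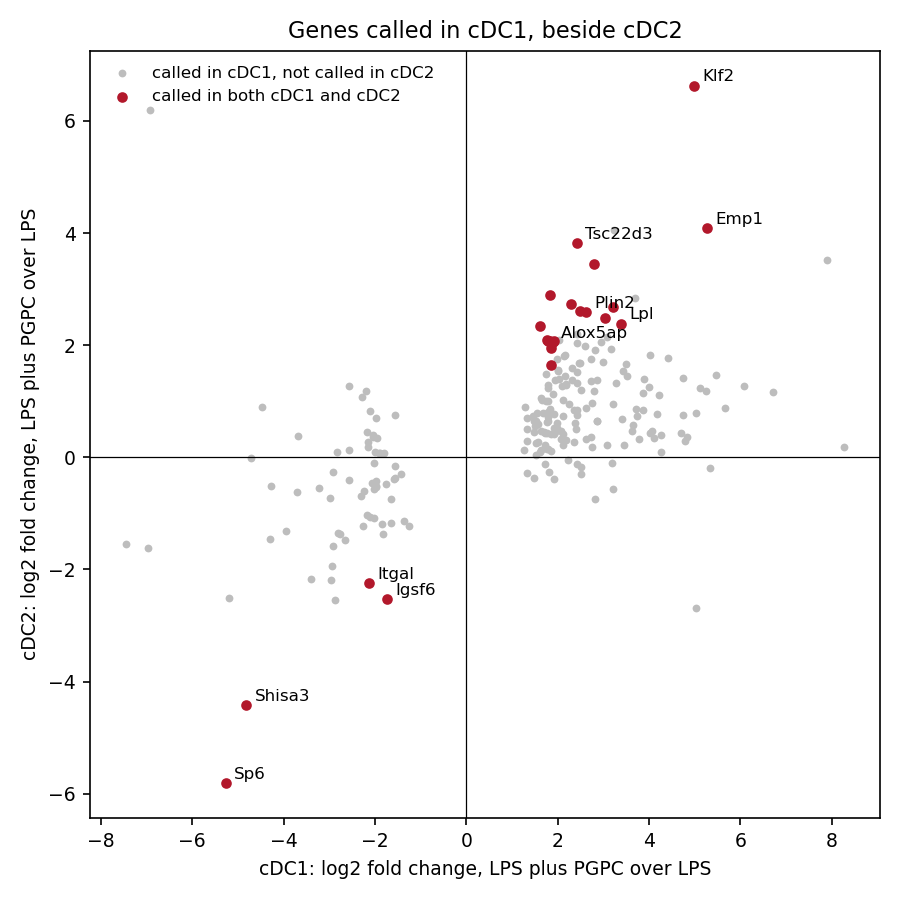
Log2 fold change, LPS plus PGPC over LPS, in cDC1 (horizontal axis) against cDC2 (vertical axis) for the 241 genes called in cDC1, with the 23 called in both in colour. Of these 23, 19 lie in the upper right, Lpl, Plin2, Klf2 and Tsc22d3 among them, and 4 in the lower left, Sp6, Shisa3, Itgal and Igsf6.

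The difference between the cell kinds was tested itself and passed for 1 gene (0.00802%), with 52 by DESeq2 (0.417%) and 46 without cDC2 LPS replicate 4. Nrp1, a receptor of semaphorins and of vascular endothelial growth factor (chr8:128358604-128503363), had 43, 35.7 and 28.5 CPM in the LPS plus PGPC libraries, against 55.6, 36.6 and 35.3 CPM in the LPS libraries, all of cDC1. It had 74.3, 54.4 and 32.8 CPM in the LPS plus PGPC libraries of cDC2, against 4.61, 5.39 and 1.96 CPM in their LPS libraries. The cDC1 groups overlapped, and the cDC2 groups were far apart. Log2 fold changes were -0.26 ± 0.37 (adjusted p = 0.787) in cDC1 and 3.68 ± 0.45 (adjusted p = 9.92e-05) in cDC2, and their difference, cDC1 minus cDC2, was -3.94 ± 0.58 (adjusted p = 0.00498). In a fit on the 12 libraries of the 4 groups alone, edgeR called 0 genes.

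PGPC given to cDC1 without LPS, against untreated cDC1, changed 259 genes (2.08%), 72 higher (0.578%) and 187 lower (1.5%), and these libraries too are not shared with the comparison above. The fit on the 12 cDC1 libraries called 68 genes, the fit on the 6 libraries alone 8, and DESeq2 642. Common to both were 12 genes, 4.98% and 4.63% of the 2 lists: 9 higher in both, among them Lpl and Tsc22d3, 1 lower in both, Adamts4, and 2 with opposite directions, Dusp5 and Vat1, the last named after its values were seen. Lpl rose by 2.43 ± 0.42 (adjusted p = 0.00295) on the log2 scale without LPS, and Tsc22d3 by 1.57 ± 0.36 (adjusted p = 0.0224). Dusp5 had 5.42, 2.93 and 4.85 CPM with PGPC, against 18, 27 and 35.9 CPM in untreated cDC1, without overlap and at a log2 fold change of -2.58 ± 0.43 (adjusted p = 0.00206). Without LPS, Plin2 (0.74 ± 0.34 (adjusted p = 0.275)), Klf2 (0.78 ± 0.75 (adjusted p = 0.678)) and Klf6 (0.76 ± 0.36 (adjusted p = 0.292)) were not called. Of the 173 genes higher with LPS plus PGPC 115 were positive without LPS, and of the 68 lower ones 29 were negative. The median log2 fold change of all tested genes for PGPC without LPS was 0.

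The effect of PGPC differed between cDC1 with and without LPS for 159 genes (1.28%), 113 with a higher (0.907%) and 46 with a lower effect (0.369%) under LPS. DESeq2 called 506 (4.06%). Tnf, Cd40 and Il12b were among these. Cd40 had 19.1, 7.82 and 15.7 CPM with PGPC alone, against 2.57, 5.44 and 5.6 CPM in untreated cDC1, so the log2 fold change was 1.56 ± 0.55 (adjusted p = 0.142) without LPS and -1.78 ± 0.52 (adjusted p = 0.0716) with it. For Tnf the values were 8.07, 7.16 and 7.78 CPM with PGPC alone, against 1.71, 1.39 and 4.09 CPM untreated, and the log2 fold changes 1.60 ± 0.53 (adjusted p = 0.111) without LPS and -1.45 ± 0.46 (adjusted p = 0.104) with it. Differences, with LPS minus without, were -3.34 ± 0.76 (adjusted p = 0.0246) for Cd40, -3.05 ± 0.70 (adjusted p = 0.0275) for Tnf and -5.35 ± 1.21 (adjusted p = 0.0241) for Il12b. The levels of these 3 genes without LPS lay below those with LPS in every cDC1 library. The count of differing genes was 33 without LPS replicate 1, 53 without LPS plus PGPC replicate 3, 77 without LPS replicate 2, 251 without PGPC replicate 2 and 349 without PGPC replicate 1.

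LPS itself, against untreated cDC1, uses the same LPS libraries as the main comparison, but with the opposite sign. Genes picked for a large main effect therefore tend to show an opposite value here by construction. For that reason the fold changes are set beside the main ones without a test between them, and opposite values are not evidence that PGPC reverses the LPS response. For Lpl the log2 fold change was 3.39 ± 0.45 (adjusted p = 0.000469) for LPS plus PGPC over LPS and -3.20 ± 0.45 (adjusted p = 2.03e-05) for LPS over untreated. For Emp1, Cd63 and Alox5ap the values for LPS over untreated were -6.43 ± 0.81 (adjusted p = 6.78e-06), -2.80 ± 0.47 (adjusted p = 0.000164) and -3.58 ± 0.42 (adjusted p = 2.56e-06). Sp6 had -5.27 ± 0.67 (adjusted p = 0.000469) for LPS plus PGPC over LPS and 10.26 ± 0.98 (adjusted p = 6.2e-07) for LPS over untreated, where untreated libraries were at or near 0. Ebi3, Pik3cg and Serp1 had 2.51 ± 0.51 (adjusted p = 0.00108), 2.19 ± 0.52 (adjusted p = 0.0044) and 1.66 ± 0.38 (adjusted p = 0.00294) for LPS over untreated. Bcl2l1 had 3.29 ± 0.43 (adjusted p = 1.03e-05) and Klf6 0.38 ± 0.36 (adjusted p = 0.504).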

How the data were processed

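RNA was reverse transcribed with a Smart-Seq2 protocol, from RNA normalised to a like number of cells, and Nextera XT libraries were read in pairs, per the labels' protocols. The protocol does not mark strand, so overlapping and antisense genes cannot be told apart. bcl2fastq 2.2, RSEM and the build GRCm38 are named in the submitters' processing notes, with no version of RSEM and no annotation. Expected counts are the unit of the table that the authors deposited, made with RSEM and given per gene symbol for 36 libraries and 53299 symbols. A share of 21% of the values above 0 had decimals, and all were rounded. Positions are those of GENCODE M21, which holds 52846 of the symbols.

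edgeR 4.0.16 with limma 3.58.1 in R 4.3.3 fitted 8 group means to 23 libraries: those without alum, other than cDC2 PGPC replicate 6, which held very few counts. TMM factors came from these 23 libraries, filterByExpr (minimum count 10, minimum total 15) kept 12463 genes, and robust quasi-likelihood tests on 15 residual degrees of freedom used Benjamini-Hochberg adjusted p under 0.05. The biological coefficient of variation was 0.545. Intervals and floors (3 counts) cover counting error only. Alternatives were DESeq2 1.42.0, median-ratio scaling, no filter, other sets of libraries, no ribosomal RNA genes, a replicate block, non-robust dispersions and each library left out.

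Genes were named by a rule: up to 15 called genes with the largest fold change each way whose group mean reached 5 CPM on the higher side and whose groups did not overlap, up to 4 members of each of 24 process lists by adjusted p, a fixed panel, genes that passed an interaction test, and abundant called genes. The members and lists were chosen with earlier results of these data known. Alum libraries were not used, and the values of some listed genes are not reported here.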

Additional observations from a re-analysis of the deposited data

Results flagged for a closer look

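The effect of PGPC under LPS on Nrp1 differed between cDC1 and cDC2, by -3.94 ± 0.58 (adjusted p = 0.00498) on the log2 scale, cDC1 minus cDC2. Its LPS library values in cDC2, 4.61, 5.39 and 1.96 CPM, were the low ones among the 4 groups.

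The effect of PGPC on cDC1 differed between cells with and without LPS for the following genes, and the values are log2 fold changes with LPS minus without. Of the named panel, Tnf gave -3.05 ± 0.70 (adjusted p = 0.0275), Cd40 -3.34 ± 0.76 (adjusted p = 0.0246) and Il12b -5.35 ± 1.21 (adjusted p = 0.0241). Lower effects under LPS were those of Prss34 (-14.08 ± 1.87 (adjusted p = 0.00374)), Cd200r3 (-13.45 ± 2.68 (adjusted p = 0.0196)), Cpa3 (-9.98 ± 2.00 (adjusted p = 0.0196)), Prickle1 (-10.22 ± 2.22 (adjusted p = 0.023)) and Mgll (-7.64 ± 1.84 (adjusted p = 0.0392)). Prss34, Cpa3 and Cd200r3 are genes of mast cells or basophils. Higher effects under LPS were those of Lgr6 (13.48 ± 2.46 (adjusted p = 0.0105)), Zfp532 (12.65 ± 2.56 (adjusted p = 0.0182)), Pxdc1 (10.16 ± 2.21 (adjusted p = 0.0224)), Ptprf (9.64 ± 1.92 (adjusted p = 0.0155)) and Parp12 (9.40 ± 1.44 (adjusted p = 0.00379)).

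Several of these rest on groups at 0, where the fitted value is no bound. Parp12 stood at 77, 45.7 and 113 CPM with LPS plus PGPC, against 75.3, 60.2 and 104 CPM with LPS, and at 0, 0 and 0 CPM with PGPC alone, against 39.3, 7.85 and 2.57 CPM untreated. Pxdc1 stood at 15.8, 4.21 and 13.7 CPM with LPS plus PGPC, against 1.25, 1.18 and 1.47 CPM with LPS, and at 0, 0 and 0 CPM with PGPC alone, against 0.855, 0 and 7.42 CPM untreated. Prss34 stood at 0, 0.114 and 0 CPM with LPS plus PGPC, against 0.536, 1.18 and 0.294 CPM with LPS, and at 36.1, 25.7 and 45.5 CPM with PGPC alone, against 0, 0 and 0 CPM untreated. Lgr6 stood at 3.08, 0 and 0 CPM with LPS plus PGPC, against 0, 0 and 0 CPM with LPS, and at 0.0395, 0 and 0.0638 CPM with PGPC alone, against 29.1, 4.93 and 15.7 CPM untreated, so with LPS it was above 0 in 1 library, and its log2 fold change without LPS was -7.93 ± 1.53 (adjusted p = 0.00682).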

How the results depend on the processing

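In 16 alternatives no named gene changed direction with a call. With LPS plus PGPC replicate 2 alone, Fkbp10 lost its call at a log2 fold change of 0. Of 162 genes named by the rule 65 were called, 49 of these lost the call in at least 1 alternative, and 46 uncalled genes gained one in at least 1.

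For LPS plus PGPC against LPS in cDC1 (241 calls), DESeq2 gave 722 and no filter on low counts 585. With 2 of the 3 LPS plus PGPC libraries left out and the spread taken from the other groups, added after seeing the data, replicate 1 alone gave 283, replicate 2 alone 13 and replicate 3 alone 115. Leaving out 1 library gave 60 to 273. In cDC2 (48 calls) DESeq2 gave 190, no filter 156, the 6 libraries of the comparison alone 13 and leaving out 1 library 19 to 83. For PGPC without LPS (259 calls) DESeq2 gave 642, no filter 632, the 12 cDC1 libraries 68, the 6 libraries alone 8 and leaving out 1 library 119 to 317. For the difference between cell kinds (1 call) DESeq2 gave 52, no filter 97, its 4 groups alone 0 and leaving out 1 library 1 to 46. For the difference by LPS (159 calls) DESeq2 gave 506, no filter 592, the 12 cDC1 libraries or its 4 groups alone 58 and leaving out 1 library 33 to 349. The cause of these shifts was not tested. Median-ratio scaling, 24 libraries, no ribosomal RNA genes and non-robust dispersions kept each count within 1.5 times.

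Same-numbered libraries paired in part: the correlations of their deviations were 0.261, 0.0908 and 0.219 over 9111 genes. Replicates 1 and 3 each correlated best with the library of their own number, and replicate 2 with replicate 3. The main fit took no pairing into account. A replicate block gave 275 calls, 177 higher and 98 lower, and ended 6 of the 97 calls of named genes, those of Adamts4, Cd69, Ehf, Marco, Npc2 and S100a6. LPS replicates 2 and 3 held the fewest counts, and in them a gene at 0 may reach 1.77 and 0.883 CPM.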
